A study of Mus musculus with 4 samples.

Results

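The genes described here were 10 genes of the smooth muscle contractile apparatus, Acta2, Actg2, Tagln, Cnn1, Cnn2, Myl9, Myh11, Lmod1, Tpm1 and Tpm2, taken by gene symbol from the 18298 genes listed in at least 1 sample. All 10 were listed in every sample and passed the filter on low counts (at least 10 reads in at least 2 samples), which 14123 genes passed in all. RNA-seq was done on primary chondrocytes grown from the rib cartilage of E18.5 C57BL/6 mouse embryos and kept to passage 1 (P1). The 2 Senp6-Mut samples carried Dermo1-Cre and Senp6f/f, and the 2 WT samples carried Senp6f/f with no Cre named, so the floxed alleles of Senp6, which encodes a SUMO protease, were shared by both groups. Dermo1-Cre is active in mesenchymal cells from the embryo onwards and not in chondrocytes alone. The labels do not say whether a sample came from 1 embryo or several, so p-values measure the spread between these samples.

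Smooth muscle contracts through actin filaments that are bound by tropomyosins and calponins and pulled by myosin II. Many genes of this apparatus are controlled by serum response factor (SRF), which binds CArG boxes in their promoters together with myocardin or the myocardin-related factors MRTF-A and MRTF-B, and the latter enter the nucleus when actin polymerizes. Fibroblasts and cultured mesenchymal cells, chondrocytes spread on plastic among them, can also turn on part of this set, with Acta2 as the usual marker of the myofibroblast state.

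Most of the contractile genes had higher levels in both Senp6-Mut samples than in both WT samples (n = 2 per group). The differences were 1.17-fold to 1.86-fold for Acta2, Actg2, Tagln, Cnn1, Myl9, Myh11, Lmod1 and Tpm2, with Tpm2 the smallest. On CPM (counts scaled to library size, here with the TMM factors of edgeR), both Senp6-Mut samples were above both WT samples for 8 of the 10, against 25.4% of all genes tested, and none was below in both, against 22.8%. Cnn2 and Tpm1 were the members whose groups overlapped. The median log2 fold change of the members was 0.52, and that of all genes tested was 0.0097. By edgeR's quasi-likelihood test with Benjamini-Hochberg adjustment, 0 of the 10 passed an adjusted p of 0.05, as did 0% of all genes in either direction, where the smallest adjusted p was 0.0512. At an unadjusted p under 0.05, 7 members were higher and 0 lower, against 9.29% and 6.28% of all genes. DESeq2 called 6 members higher at an adjusted p of 0.05, against 3.07% of all genes, and limma on log2(RPKM + 1) called 0, with 7 higher at an unadjusted p under 0.05, against 9.55% of all genes.

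Reads counted on the genes tested were 21007449 and 26130503 in WT and 30983806 and 28222961 in Senp6-Mut. Both Senp6-Mut samples were thus deeper than both WT samples. Senp6 itself had RPKM values of 10.8 and 18.0 in WT and 12.0 and 8.07 in Senp6-Mut. Its groups overlapped, and counts over the whole gene do not show whether the floxed part was lost. Xist had 2, 5 and 3 reads in both WT samples and Senp6-Mut replicate 1, and 11354 in Senp6-Mut replicate 2, so the latter differed from the rest in sex. Without Senp6-Mut replicate 2, the median log2 fold change of the contractile genes was 0.53 and 9 of the 10 were above both WT samples in Senp6-Mut replicate 1, against 34.5% of all genes. All 12 chondrocyte markers were listed in every sample, and all 12 were lower in both Senp6-Mut samples than in both WT samples, with 22.8% of all genes lower in this way. Their summed RPKM was 1030 and 1015 in WT and 513 and 645 in Senp6-Mut. In such bulk samples, fewer cells of a type and less RNA per cell cannot be told apart.

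Promoter sequence was found in RefSeq (GRCm38.p6) for 7 of the members, from 250 bases before to 50 bases after the start of the gene. For Tagln, Myh11 and Actg2 none was available, so their promoters were not searched. A CArG box whose 6 core bases were all A or T lay in 2 of these 7, those of Myl9 and Cnn2, against 1.63% of 32851 promoters. With 1 other core base allowed, Acta2 was added and the share of all promoters was 9.98%. CATTCC or GGAATG, the core of the MCAT element bound by TEAD factors, was in 3 of the 7 (Acta2, Lmod1 and Tpm1), against 14.7% of all promoters. Counted from the gene start, the CArG matches begin at -84 and -34 in Acta2, -161 and -99 in Myl9 and -56 in Cnn2, and GGAATG begins at -146 in Acta2, -130 in Lmod1 and -56 in Tpm1. In the GENCODE M21 models, whose genes start further upstream, the stretches of Acta2 and Tpm1 lie within the gene and overlap annotated UTRs. Both strands were searched, no match of one motif overlapped the other, and Cnn1 and Tpm2 held neither. The stretches around the matches are shown 5′ to 3′ on the strand of the gene, with the matched bases in capitals, because they carry the matches in members whose groups did not overlap (Acta2, Myl9 and Lmod1) and in those whose groups did (Cnn2 and Tpm1).
Acta2, chr19:34255438-34255467, minus strand: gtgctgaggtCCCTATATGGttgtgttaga
Acta2, chr19:34255388-34255417, minus strand: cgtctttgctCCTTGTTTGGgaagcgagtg
Acta2, chr19:34255502-34255531, minus strand: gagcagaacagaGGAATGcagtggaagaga
Myl9, chr2:156775288-156775384, plus strand: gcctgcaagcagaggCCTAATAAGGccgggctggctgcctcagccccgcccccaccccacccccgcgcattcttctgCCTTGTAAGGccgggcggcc
Cnn2, chr10:79988510-79988579, plus strand: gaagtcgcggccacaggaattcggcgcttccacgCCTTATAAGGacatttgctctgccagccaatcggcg
Lmod1, chr1:135324653-135324702, plus strand: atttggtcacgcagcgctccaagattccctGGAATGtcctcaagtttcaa
Tpm1, chr9:67049252-67049281, minus strand: tggctgtcctaaGGAATGcggtcgcccccc

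The actins of smooth muscle are Acta2, which forms the contractile filaments of vascular smooth muscle and myofibroblasts, and Actg2, the form of visceral smooth muscle. Acta2 had RPKM values (reads scaled to the length of the gene and to the depth of the library) of 951 and 1127 in WT and 1434 and 1299 in Senp6-Mut. It ranked 51st and 33rd of all genes by RPKM in WT and 21st and 24th in Senp6-Mut. Both Senp6-Mut values were above both WT values, with a log2 fold change of 0.36 ± 0.14 (SE, n = 2 per group), an edgeR 95% confidence interval of 0.01 to 0.70 and an edgeR adjusted p of 0.304. Actg2, at lower levels, had RPKM values of 85.3 and 127 in WT and 188 and 183 in Senp6-Mut. The groups were apart although the WT samples differed from each other by 0.52 on the log2 scale, and Actg2 gave a log2 fold change of 0.77 ± 0.19 (edgeR adjusted p = 0.134, DESeq2 adjusted p = 0.00803). The ratio of Acta2 to Actg2 RPKM was 11.1 and 8.86 in WT and 7.64 and 7.10 in Senp6-Mut, lower in both mutant samples, with a two-sided exact permutation p of 0.333, the smallest that 2 samples against 2 allow.

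**Figure D1:**
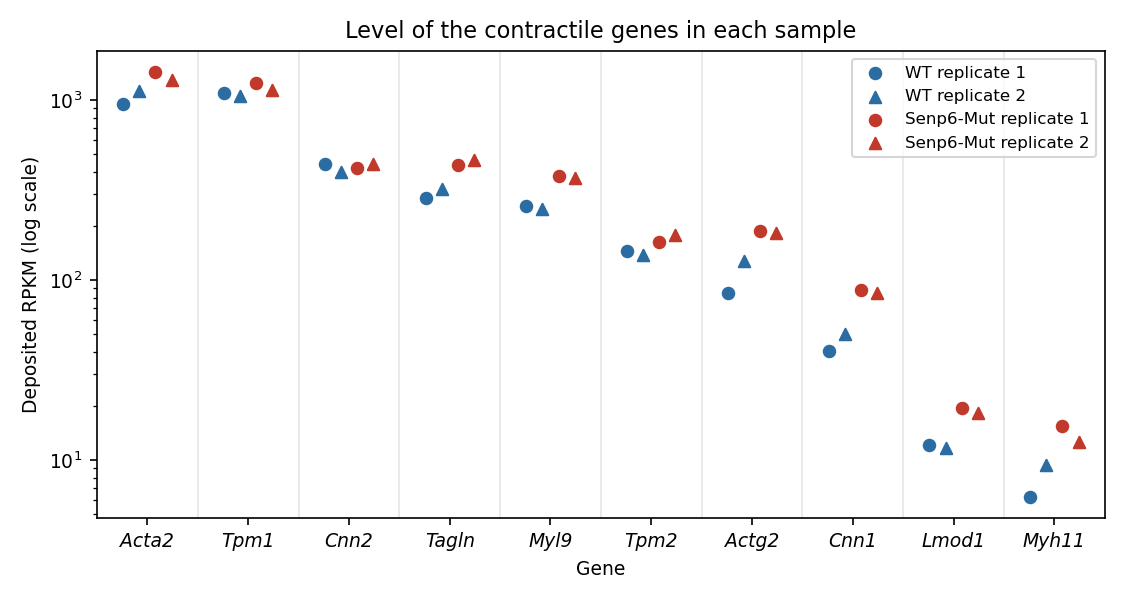
RPKM of each of the 10 contractile genes on a log axis, with a point for every WT and Senp6-Mut sample. The points span from 6.28 (Myh11 in WT replicate 1) to 1434 (Acta2 in Senp6-Mut replicate 1), and the Cnn2 points of both groups lie among each other.

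Among the proteins that bind actin filaments, Cnn1, the calponin of differentiated smooth muscle, gave the largest difference of the 10 in the fit of all 4 samples. Without WT replicate 2, Myh11 (1.07 on the log2 scale) and Actg2 (1.02) exceeded Cnn1, and without Senp6-Mut replicate 2 Myh11 (0.97) exceeded Cnn1 (0.95). Its RPKM was 40.4 and 50.1 in WT and 88.6 and 84.9 in Senp6-Mut, or 45.3 ± 6.84 against 86.8 ± 2.62 (mean ± SD, n = 2). The groups were well apart, with a log2 fold change of 0.90 ± 0.14 and a 95% interval of 0.56 to 1.24. Cnn1 was the only member under an edgeR adjusted p of 0.1 (0.0833), a level that 1.52% of all genes passed as higher and 0.496% as lower. Its relative Cnn2, which is expressed well outside smooth muscle, had RPKM values of 441 and 399 in WT and 420 and 443 in Senp6-Mut. These overlapped, the log2 fold change was -0.0047 ± 0.13, and the 95% interval was -0.32 to 0.31. The ratio of Cnn1 to Cnn2 RPKM was 0.0917 and 0.126 in WT and 0.211 and 0.191 in Senp6-Mut (two-sided exact permutation p = 0.333, again the smallest possible). Tagln, also called SM22-alpha, is an actin cross-linking protein of the calponin family and a common early smooth muscle marker. Its RPKM was 287 and 323 in WT and 434 and 464 in Senp6-Mut, with both mutant samples higher and a log2 fold change of 0.52 ± 0.12 (edgeR adjusted p = 0.131). The exons of Tagln overlap an antisense gene, Gm48529, over 62.4% of their bases, and the strand setting of the counting is not given, so reads of the pair cannot be told apart.

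**Figure D2:**
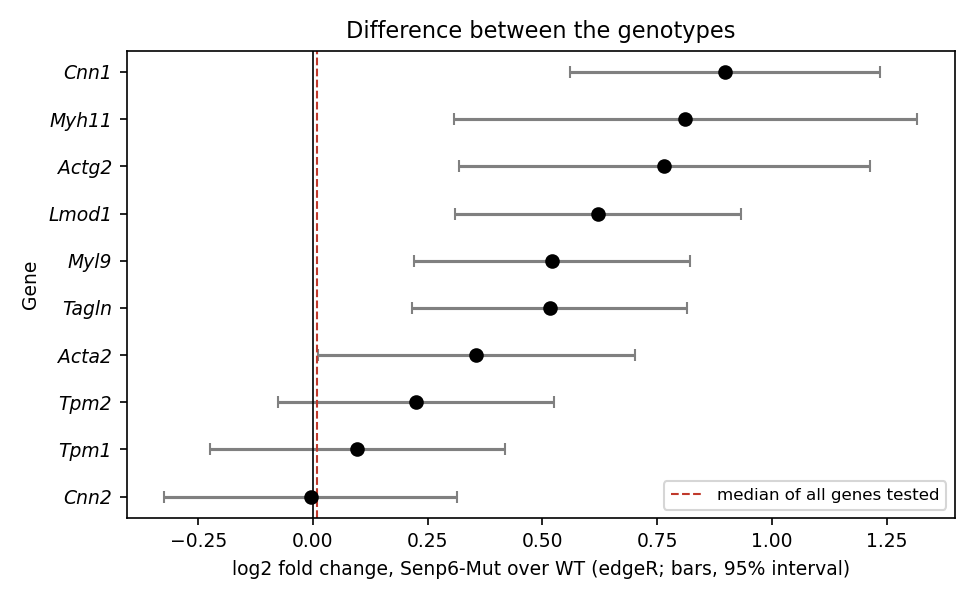
Log2 fold change (Senp6-Mut over WT) of each contractile gene from edgeR, with bars for the 95% confidence interval. Cnn1 lies at 0.90 and Cnn2 at -0.0047, and the intervals of Cnn2, Tpm1 and Tpm2 include 0.

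Lmod1 encodes leiomodin, which starts new actin filaments in smooth muscle. It had RPKM values of 12.1 and 11.8 in WT and 19.4 and 18.4 in Senp6-Mut. The WT samples lay close together and below both mutant samples, with a log2 fold change of 0.62 ± 0.13 (edgeR adjusted p = 0.108, DESeq2 adjusted p = 0.0152). Tropomyosins lie along the filament and set access of myosin to it, and both tropomyosins of the set were among the members with the smallest differences. Tpm1 had RPKM values of 1093 and 1060 in WT and 1239 and 1132 in Senp6-Mut. Its log2 fold change was 0.10 ± 0.13 with a 95% interval of -0.22 to 0.42, and its groups were apart on RPKM but overlapped on TMM-scaled CPM. Tpm2 had RPKM values of 145 and 139 in WT and 164 and 178 in Senp6-Mut. Both mutant samples were higher, and the log2 fold change of 0.23 ± 0.13 had a 95% interval of -0.08 to 0.53. Both genes make several products, with 16 coding transcripts of Tpm1 and 4 of Tpm2 in GENCODE M21, and counts per gene do not separate the smooth muscle forms from the others.

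The motor of the filament is myosin II, of which Myh11 is the smooth muscle heavy chain and Myl9 a regulatory light chain. Myh11, the marker held to be most specific for mature smooth muscle, was the lowest of the 10 per length in every sample, with RPKM values of 6.28 and 9.41 in WT and 15.6 and 12.7 in Senp6-Mut. The groups did not overlap, the WT samples differed by 0.53 on the log2 scale, and Myh11 gave a log2 fold change of 0.81 ± 0.21 (edgeR adjusted p = 0.148). Myl9 had RPKM values of 259 and 248 in WT and 380 and 369 in Senp6-Mut. Its samples were close within each group, and the difference was 0.52 ± 0.13 on the log2 scale (edgeR adjusted p = 0.129). The ratio of Myl9 to Myh11 RPKM was 41.2 and 26.4 in WT and 24.4 and 29.1 in Senp6-Mut, and these overlapped.

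The order of the members by RPKM was nearly the same in every sample. By mean RPKM, Acta2 and Tpm1 were at the top, Cnn2, Tagln and Myl9 followed, then Tpm2, Actg2 and Cnn1, with Lmod1 and Myh11 last. Of neighbours in this order, Acta2 and Tpm1 changed places between the WT samples, with Tpm1 first in WT replicate 1. Cnn2 was above Tagln in both WT samples and below it in both Senp6-Mut samples. Tpm2 was likewise above Actg2 in both WT samples and below it in both Senp6-Mut samples. Together the 10 genes made up 0.796% and 0.835% of all RPKM in WT and 1.08% and 0.994% in Senp6-Mut, and Acta2 and Tpm1 gave 58.1% to 62.6% of this sum. Members with a lower RPKM tended to have the larger fold changes, Cnn1, Myh11, Actg2 and Lmod1 before Tagln and Myl9, with exceptions. Tpm2, with a mean RPKM close to that of Actg2, differed by 0.23 on the log2 scale, less than Acta2, the most abundant member. Spearman's rho between mean RPKM and log2 fold change was -0.794 across the 10 genes, which share the same 4 libraries. Within WT, the median absolute log2 difference between replicates was 0.155 for the members and 0.266 for all genes. Within Senp6-Mut, the same differences were 0.0914 and 0.146. By mean RPKM the members lay at percentiles 59.3 to 99.8 of all genes tested, so these comparisons are not matched for level.

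**Figure D3:**
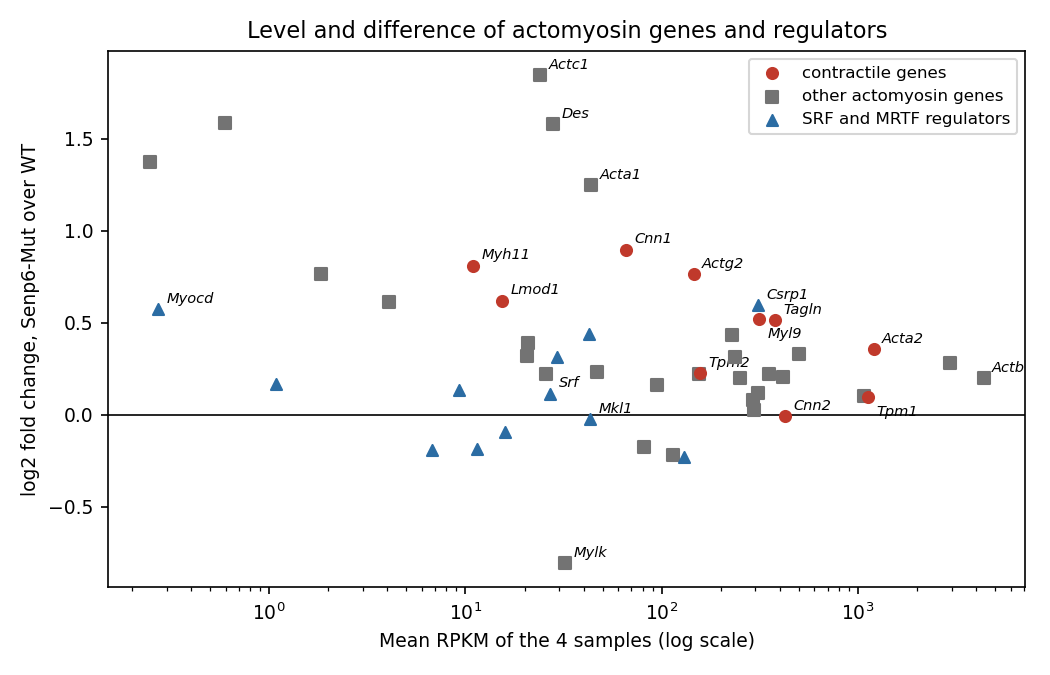
Mean RPKM over the 4 samples (log axis) against log2 fold change, Senp6-Mut over WT, for the contractile genes and the other actomyosin and regulator genes. Contractile genes with low RPKM such as Cnn1 and Myh11 lie higher than Tpm1 and Cnn2.

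Of the other genes of the actomyosin system, 28 were measured, and 22 were above WT in both Senp6-Mut samples while 2 were below, against 25.4% and 22.8% of all genes. By edgeR 0 of the 28 passed an adjusted p of 0.05, with 8 higher and 1 lower at an unadjusted p under 0.05 (9.29% and 6.28% of all genes), and DESeq2 called 1, Des. The median log2 fold change of the 28 was 0.23. The most abundant, the cytoplasmic actin Actb, had RPKM values of 3663 and 4367 in WT and 4818 and 4659 in Senp6-Mut, a log2 fold change of 0.20 ± 0.14. The other cytoplasmic actin, Actg1, differed by 0.28 ± 0.15, the light chain Myl6 by 0.10 ± 0.12 and Tagln2 by 0.33 ± 0.18 on the log2 scale. The ratio of Acta2 to Actb RPKM was 0.260 and 0.258 in WT and 0.298 and 0.279 in Senp6-Mut, higher in both mutant samples (two-sided exact permutation p = 0.333). The ratio of Tagln to Tagln2 RPKM, 0.812 and 0.622 in WT and 0.798 and 0.795 in Senp6-Mut, overlapped. The ratio of Acta2 to the skeletal actin Acta1 was 24.7 and 94.6 in WT and 24.4 and 19.8 in Senp6-Mut (two-sided exact permutation p = 0.333). WT replicate 1 and Senp6-Mut replicate 1 were almost equal, and only WT replicate 2, where Acta1 was lowest, stood well apart. Mylk, the kinase that phosphorylates the regulatory light chain, was picked out after its values were seen because it went the other way. Its RPKM was 49.3 and 32.0 in WT and 29.2 and 18.8 in Senp6-Mut, with a log2 fold change of -0.80 ± 0.29, which did not pass an edgeR adjusted p of 0.05.

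**Figure D4:**
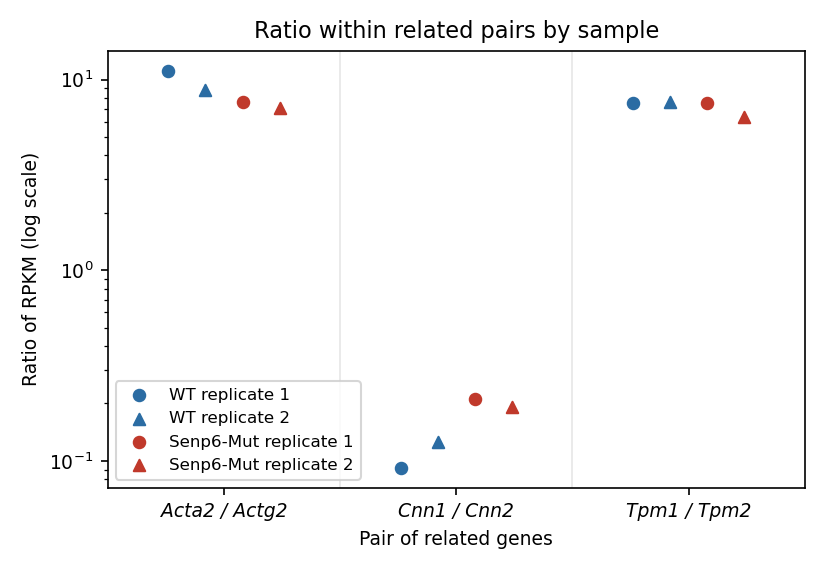
Ratio of RPKM within 3 pairs of related contractile genes (log axis), with a point for each WT and Senp6-Mut sample. The Acta2 to Actg2 ratio is lower and the Cnn1 to Cnn2 ratio higher in both Senp6-Mut samples, and the Tpm1 to Tpm2 ratios, 7.55 and 7.66 in WT and 7.57 and 6.36 in Senp6-Mut, overlap.

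Of 12 regulators, cofactors and targets of SRF and MRTF, 5 were above WT in both Senp6-Mut samples and 3 below, against 25.4% and 22.8% of all genes. By edgeR 0 passed an adjusted p of 0.05, with 2 at an unadjusted p under 0.05, both higher, against 9.29% of all genes. These 2 were Csrp1 and Fhl2, and not Srf, Myocd, Mkl1 or Mkl2. Srf had RPKM values of 26.4 and 24.9 in WT and 30.2 and 27.0 in Senp6-Mut, a log2 fold change of 0.12 ± 0.14 (edgeR adjusted p = 0.744). Mkl1, which encodes MRTF-A, had 45.5 and 40.2 in WT and 43.4 and 43.6 in Senp6-Mut, and Mkl2, which encodes MRTF-B, had 7.95, 9.38, 9.91 and 9.64 in the same order. Myocd, which encodes myocardin, was low, with RPKM values of 0.288 and 0.142 in WT and 0.296 and 0.359 in Senp6-Mut. Among cofactors and targets, Csrp1, a LIM protein of smooth muscle, had 205 and 279 in WT and 394 and 357 in Senp6-Mut, a log2 fold change of 0.60 ± 0.17 (edgeR adjusted p = 0.171), and was the gene of this list that DESeq2 called. Fhl2, another LIM protein, differed by 0.44 ± 0.12, and Csrp2 by -0.23 ± 0.12. Scai, a suppressor of MRTF, the ternary complex factors Elk1, Elk3 and Elk4, which compete with MRTF for SRF, and Klf4 can all oppose the smooth muscle programme. Scai and Elk3 differed by 0.17 and 0.31 on the log2 scale, and Elk1, Elk4 and Klf4 by -0.19, -0.19 and -0.09. Mkl1 differed by -0.02 and Mkl2 by 0.13. The activity of these proteins was not measured.

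TGF-beta is a main inducer of Acta2 in fibroblasts. Of 9 TGF-beta and SMAD genes, 3 were higher in both Senp6-Mut samples, near the 25.4% of all genes, and none was lower in both. By edgeR 0 passed an adjusted p of 0.05, with 2 at an unadjusted p under 0.05, both higher, against 9.29% of all genes. The ligand Tgfb3 had RPKM values of 77.6 and 85.1 in WT and 115 and 102 in Senp6-Mut. Its log2 fold change was 0.37 ± 0.13 (edgeR adjusted p = 0.251). Smad7, picked out after its values were seen, gave the largest difference of the 9, at 0.55 ± 0.13 (edgeR adjusted p = 0.135). Its RPKM was 4.55 and 4.83 in WT and 6.91 and 7.21 in Senp6-Mut. Tgfb1, the receptor Tgfbr2 and Smad4 differed by -0.06, -0.0040 and 0.07 on the log2 scale.

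Some markers of other cells that express contractile genes also had higher levels in Senp6-Mut. Of 8 mural cell markers, which mark pericytes and vascular smooth muscle, 5 were higher in both Senp6-Mut samples and 1 lower in both, against 25.4% and 22.8% of all genes, and their summed RPKM was 151 and 153 in WT and 203 and 198 in Senp6-Mut. DESeq2 called 2 of the 8 higher, Mcam and Des, against 3.07% of all genes. Mcam had RPKM values of 4.92 and 9.50 in WT and 27.6 and 33.1 in Senp6-Mut. Des, an intermediate filament gene of all muscle, had 16.9 and 10.5 against 42.6 and 41.9. It is also in the list of other actomyosin genes, so the mural list is not separate from that list. Cspg4, also a pericyte gene, had 17.4 and 23.0 against 25.9 and 29.1. Pdgfrb, the most abundant of the mural markers, was lower in both Senp6-Mut samples, with 99.2 and 103 in WT and 95.9 and 80.9 in Senp6-Mut. Abcc9 and Kcnj8, with log2 fold changes of -0.59 and 0.05, had groups that overlapped. Rgs5, a defining pericyte gene, was at an RPKM of 0.184 and 0.211 in WT and 0.446 and 0.391 in Senp6-Mut. Of 15 striated muscle markers, 13 were listed in at least 1 sample, Myf5 and Myf6 in none, and 12 passed the filter. Of these 12, 8 were higher in both Senp6-Mut samples and 0 lower in both, against 25.4% and 22.8% of all genes. The summed RPKM was 60.0 and 14.4 in WT and 86.3 and 105 in Senp6-Mut. Pax7, the marker of satellite cells, was at 0 reads in 3 of the 4 samples. The myogenic factors Myod1 and Myog were higher in both Senp6-Mut samples, Myod1 with 70 and 26 reads in WT against 247 and 487, and Myog with 163 and 52 against 403 and 630. Ckm, Myh8, Tnnt3 and Tnni2 had groups that overlapped. Ckm went the other way, with 45 and 1 reads in WT against 13 and 10 and a log2 fold change of -1.49. Myh8, Tnnt3 and Tnni2 differed by 0.75, 0.43 and 0.62 on the log2 scale. Abcc9, Kcnj8, Rgs5, Pax7, Myod1, Ckm, Myh8, Tnnt3 and Tnni2 were picked out after their values were seen. The part of mural and striated muscle cells in the members' differences was not tested. The sarcomeric actins Acta1 and Actc1, picked out after their values were seen, were also higher in both Senp6-Mut samples and lowest in WT replicate 2. Acta1 RPKM was 38.6 and 11.9 in WT and 58.9 and 65.5 in Senp6-Mut, and Actc1 RPKM was 15.9 and 4.60 against 36.5 and 39.5. Of all 50-base stretches of the longest Acta2 transcript, 0.352% also occur in another gene, Actg1 among them. Endothelial markers summed to an RPKM of 0.972 to 1.57 in every sample, and those of macrophages and blood to 4.09 to 6.81.

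**Figure D5:**
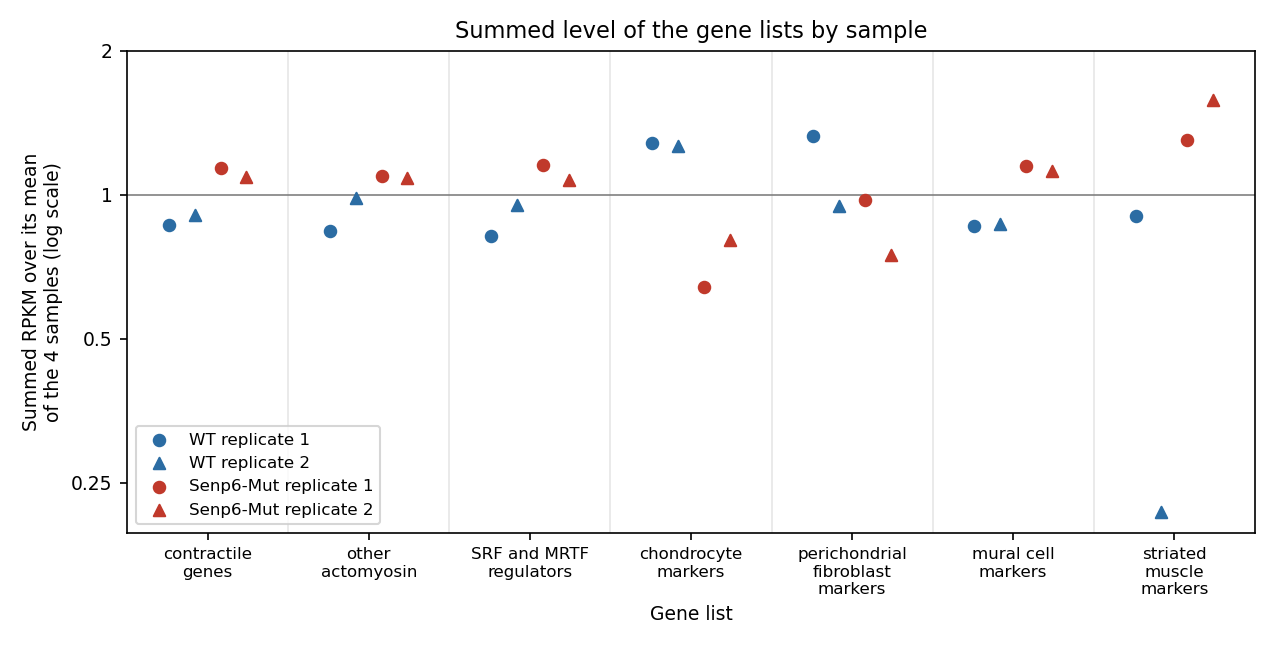
Summed RPKM of each gene list in each WT and Senp6-Mut sample, divided by the mean of the 4 samples (log axis). The contractile genes, which sum to 3320 and 3494 in WT and to 4382 and 4184 in Senp6-Mut, lie higher and the chondrocyte markers lower in both Senp6-Mut samples, and the striated muscle markers lie lowest in WT replicate 2.

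Of 12 perichondrial fibroblast markers, 4 were higher and 5 lower in both Senp6-Mut samples, against 25.4% and 22.8% of all genes, with a median log2 fold change of -0.21. The 4 most abundant, Col1a1, Col1a2, Col3a1 and Fn1, differed by -0.63, -0.61, -0.83 and 0.17 on the log2 scale. Thy1, picked out after its values were seen, differed by 1.32. Of 7 osteoblast markers, 5 passed the filter, and 1 was higher and 4 lower in both Senp6-Mut samples, against the same shares. By edgeR 0 genes of the 7 marker lists passed an adjusted p of 0.05. At an unadjusted p under 0.05, which 9.29% of all genes passed as higher and 6.28% as lower, 11 chondrocyte markers were lower, 4 striated and 4 mural markers were higher, 2 perichondrial markers were higher and 3 lower, 3 osteoblast markers were lower, and of endothelial markers 1 was higher and 1 lower. DESeq2 called 10 chondrocyte and 2 osteoblast markers lower and 2 striated, 2 mural and 1 perichondrial marker higher.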

How the data were processed

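RNA was measured in 2 WT and 2 Senp6-Mut samples, grouped by their titles and genotype labels. For each sample the authors deposited raw read counts per gene, RPKM values per gene and the percent of each gene's bases covered (the exact definition of that column is not given in the sources used here). The submitters' processing notes name mm9 and SAMtools. The aligner, counter, annotation and strand setting are not given in the sources used here, and the labels name both Ion Proton and Illumina. The members and gene lists were chosen with earlier results of these data known. Genes missing from a file were given a count of 0, and genes with at least 10 reads in at least 2 samples were kept. Counts were tested with edgeR 4.0.16 (R 4.3.3; TMM, robust quasi-likelihood fit, genotype as the only term) with Benjamini-Hochberg adjustment over all 14123 genes. The SE is the log2 fold change divided by the square root of the F statistic. DESeq2 1.42.0, limma 3.58.1 on log2(RPKM + 1) and log2(RPKM + 0.1), RLE scaling, other count filters, a replicate block and leaving out each sample were alternatives. The pipeline was tested on simulated data. Replicates differed beyond sampling noise (chi-square per degree of freedom 48.6 in WT and 23.7 in Senp6-Mut) and were counted separately. Depth per sample is given above. The members had 875 reads or more in every sample, and for them the spread between 2 samples and not depth limits the precision. Genes named beside the members and Senp6 were all SRF and MRTF regulators, the 4 of highest mean RPKM in a list, and the 5 nearest in profile; not all of them are printed, and others are said to be picked after seeing values. Promoters came from RefSeq on GRCm38.p6 and transcript models from GENCODE M21 on GRCm38, which are not the build of the files, so no position was used to count reads.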

Additional observations from a re-analysis of the deposited data

How the results depend on the processing

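With 2 samples per group, the calls depended on the method far more than the direction did. The median log2 fold change of the members was 0.49 to 0.56 under all alternatives, and no member was called lower in any. DESeq2 called 6 members higher, and over all genes 434 higher and 263 lower, with 6 and 12 of the listed genes. Without a count filter, 1 member was called higher, over all genes 225 higher and 61 lower, and of the listed genes 3 and 6. RLE scaling, a minimum of 10 reads in every sample and both limma fits called 0. Without 1 sample in turn, members called higher were 0 to 6 (4 without WT replicate 1, 6 without WT replicate 2, and 0 without either Senp6-Mut sample), all genes called were 68 to 1296 higher and 37 to 1444 lower, and listed genes 3 to 20 higher and 7 to 16 lower. In these fits the lone sample is assumed to vary like the other group. Members lower with groups apart were 0 to 1 without 1 sample, an alternative added after seeing the data, and 9 were higher with groups apart on RPKM. The 1 lower member appeared without WT replicate 2. The log2 fold change of Cnn2 reversed to 0.041 in both limma fits and was -0.13 to 0.10 without 1 sample in turn, above 0 without WT replicate 1 (0.10) or Senp6-Mut replicate 1 (0.022); the cause was not tested.

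The labels do not say whether replicate numbers pair the samples. The correlation of replicate differences between the genotypes was -0.0388 over all genes tested, which with 2 samples per group cannot settle this. With a replicate block, 0 members, 84 genes higher and 33 lower were called, with 3 and 3 of the listed genes, and Cnn1 had an edgeR adjusted p of 0.0712.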

Other observations

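The 5 genes outside the members whose log2 profile over the 4 samples was nearest to the members' mean profile were Slc29a2, Spg11, Zbtb18, Fryl and Tbc1d23, at Euclidean distances of 0.021 to 0.045 on the log2 scale. Of non-member genes, 28 were nearer than Tagln and 5568 nearer than Cnn2, so with 4 samples many genes share such a profile. The share of the gene covered by reads was 80.05% and 90.63% in WT and 96.03% and 95.06% in Senp6-Mut for Acta2, although Acta2 had 51403 reads or more in every sample.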
